A study of Mus musculus with 2 samples.

Results

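The imprinted growth genes Dlk1, Meg3, Igf2, H19, Cdkn1c, Phlda2, Peg3, Plagl1, Mest and Grb10 were followed through the mesoderm of the mouse pharyngeal apparatus and heart. They were taken by gene symbol, and all 10 were found among the 27998 genes of the deposited matrices. The data are 2 droplet-based single-cell libraries of 3′ transcript ends from Swiss Webster embryos at embryonic day 9.5 (E9.5), sorted as live GFP-positive cells. Both genotypes carry Mesp1Cre, which acts in early mesoderm, and a Rosa26-GFPflox/+ reporter that marks the cells in which Cre has acted. Sorting was meant to leave out cells of other lineages. Ctrl embryos carry nothing further, and cKO embryos are also Tbx1flox/flox, so that Tbx1, a T-box transcription factor of the pharyngeal mesoderm, should be lost from this lineage. Per the study's methods each library pools a pair of embryos and the cKO pair was at a slightly later somite stage. The genotypes also came from different parental crosses, so that genotype, stage, cross and library cannot be told apart. The study's further libraries of these genotypes were not analysed here. Each group is 1 library, so the genotypes were not tested against each other and the values describe these libraries. All intervals are at 95% and cover counting error only, and amplification or capture can add to it.

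An imprinted gene is transcribed mainly from the allele of 1 parent. Paternally expressed genes tend to promote fetal growth and maternally expressed genes tend to restrain it. Imprinted genes lie in domains whose members share an imprinting control region, and in several domains a paternally expressed protein gene sits beside a maternally expressed long noncoding RNA. Counts of 3′ ends do not show which allele a transcript came from.

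The first domain, on chromosome 12, holds Dlk1 (ENSMUSG00000040856; GRCm38.p6 109452485 to 109463336), which encodes a paternally expressed membrane protein of the Notch ligand family that restrains differentiation of fat and muscle precursors. It also holds Meg3 (ENSMUSG00000021268; 109540996 to 109571729), the maternally expressed noncoding RNA of that domain. The second region is on distal chromosome 7. Igf2 (142650768 to 142666816) encodes the paternally expressed insulin-like growth factor 2, and H19 (142575530 to 142578146) is its maternally expressed noncoding neighbour. Cdkn1c (143458339 to 143461059), which encodes the cyclin-dependent kinase inhibitor p57, and Phlda2 (143501545 to 143503145), a restrainer of placental growth, are maternally expressed and follow a separate control region. Peg3 (6703892 to 6730462), a paternally expressed zinc finger gene, lies at the other end of chromosome 7. The other 3 members stand apart from these domains. Plagl1, on chromosome 10 (13090832 to 13131694), encodes a paternally expressed zinc finger factor that restrains the cell cycle. Mest, on chromosome 6 (30733506 to 30748466), is a paternally expressed mesoderm gene. Grb10, on chromosome 11 (11930499 to 12037428), encodes an adaptor that dampens signals from the insulin and insulin-like growth factor receptors and is maternally expressed outside the nervous system.

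The promoters of Dlk1 and Meg3 are shown because both neighbours stood higher in BrM-like cells of the library labelled cKO. Sequences are from RefSeq on GRCm38.p6 and run from 250 bases before to 50 after an annotated start of transcription. Capitals mark the core of the T-box motif, GGTGTG, or its reverse complement CACACC. The Dlk1 window is chr12:109452573-109452872, and Meg3 has windows at chr12:109540746-109541045 and chr12:109545148-109545447, all on the plus strand.
Dlk1: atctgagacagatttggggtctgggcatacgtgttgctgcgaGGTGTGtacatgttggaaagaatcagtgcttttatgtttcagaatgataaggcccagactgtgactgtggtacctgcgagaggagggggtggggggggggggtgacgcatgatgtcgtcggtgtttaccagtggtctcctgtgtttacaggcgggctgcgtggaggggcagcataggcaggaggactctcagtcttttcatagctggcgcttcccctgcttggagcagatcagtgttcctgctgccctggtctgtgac
Meg3, first start: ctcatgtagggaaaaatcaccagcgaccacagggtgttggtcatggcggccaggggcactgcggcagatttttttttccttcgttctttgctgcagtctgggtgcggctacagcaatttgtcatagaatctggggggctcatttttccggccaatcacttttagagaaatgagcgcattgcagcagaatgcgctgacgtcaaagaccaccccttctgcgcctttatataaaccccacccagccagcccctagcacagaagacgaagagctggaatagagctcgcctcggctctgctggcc
Meg3, second start: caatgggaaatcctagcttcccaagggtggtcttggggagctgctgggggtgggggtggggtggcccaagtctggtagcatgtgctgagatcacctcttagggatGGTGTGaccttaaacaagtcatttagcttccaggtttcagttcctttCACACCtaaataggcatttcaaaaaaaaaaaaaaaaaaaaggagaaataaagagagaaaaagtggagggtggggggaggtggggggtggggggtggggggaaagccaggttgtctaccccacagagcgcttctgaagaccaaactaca
The Dlk1 window held the core 1 time, the first Meg3 window did not hold it, and the second Meg3 window held it 1 time on each strand. Of all 32851 promoter windows of this length, 19.05% held the core on either strand. Among 15 windows found for 8 members (Cdkn1c and H19 had no entry), 3 held it, 1 each of Dlk1, Meg3 and Peg3. A match is a description of these letters and not a site.

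The deposited matrices held 7418 barcodes and 132017331 unique molecular identifiers (UMIs, each counting 1 captured transcript) in the library labelled Ctrl, and 10281 barcodes and 162874391 UMIs in the library labelled cKO. Filters on quality and doublet scores left 6591 and 8969 cells, with medians of 16854 and 14192 UMIs. The targeted gene Tbx1 was read in both libraries, but only from its 3′ end. Which part of the gene the floxed allele loses is not given in the sources used here, so these counts do not check the genotype. In multilineage progenitor (MLP-like) cells Tbx1 stood at 44.4 CPM (UMIs scaled by all UMIs of that population in that library) in the library labelled Ctrl and at 99.7 CPM in the library labelled cKO, and in branchiomeric muscle progenitor (BrM-like) cells it stood at 121 and 96.3 CPM. After each cell was thinned to 5000 UMIs, 20.1% of MLP-like cells labelled Ctrl and 33.8% of those labelled cKO held a Tbx1 UMI, as did 43.3% and 29.9% of BrM-like cells, beside 2.28% and 1.502% of CM-like cells, which should lack it. Libraries are named by their labels throughout. Both libraries held cells with Xist and cells with Y-linked transcripts, and since each pool was a pair, these are taken as 1 embryo of each sex, which gives 4 embryos. Barcodes shared by both libraries numbered 15. Summed over 5 listed markers, neural crest genes reached 9.54 to 13.01 CPM in the 6 main classes labelled Ctrl and 4.69 to 7.06 CPM in those labelled cKO. Summed macrophage markers reached at most 1.87 and 1.305 CPM, neural markers 98.7 and 93.3 CPM, and epithelial markers, highest in SoM/aSHF-like cells, 312 and 455 CPM. An erythroid list of 6 genes reached 0.274 to 15.4 CPM in the classes labelled Ctrl and 133 to 159 CPM in those labelled cKO, where 159 erythroid-like cells were also found against 0. The part of these markers in the results was not tested.

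Cells were grouped without using the 10 members as features, and 15 populations had at least 50 cells in each library. Of these, 9 were named from marker genes: MLP-like, BrM-like, SoM/aSHF-like (somatic mesoderm continuous with the anterior part of the second heart field), pSHF-like (its posterior part), cardiomyocyte (CM-like), endothelium-like, epicardium-like, cranial mesenchyme-like and paraxial mesoderm-like. The other 6 are called by their 3 leading genes. The name cranial mesenchyme-like rests on 4 of 7 listed markers, Foxc1, Foxd1, Ebf2 and Lum. The listed Cyp26c1, Alx1 and Otx2 did not mark that cluster, which was led by Crym, Fst and Ebf2, so the name is only a label.

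The members fell into different patterns over these populations, and in both libraries Cdkn1c, Igf2 and H19 were highest in endothelium-like cells, where Dlk1 and Peg3 were lowest. Dlk1 stood in endothelium-like cells at 36.8 CPM (32.3 to 41.8) labelled Ctrl and 68.4 CPM (61.6 to 75.8) labelled cKO, and was highest in the Postn/Alcam/Sfrp5 cluster, at 822 and 865 CPM. Meg3 was also highest in that cluster, at 775 and 684 CPM, followed by the Colec10/Barx1/Dsg2 cluster at 725 and 624 CPM. In the library labelled Ctrl, BrM-like cells held the lowest Meg3 level of the 15 populations, 106 CPM, and the lowest Dlk1 level but that of endothelium-like cells, 73.5 CPM. In the library labelled cKO the lowest Meg3 level was that of CM-like cells, 153 CPM, and BrM-like cells stood at 283 CPM.

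Igf2 reached 467 CPM labelled Ctrl and 489 CPM labelled cKO in endothelium-like cells. Its next level, 442 and 449 CPM, was in the Postn/Alcam/Sfrp5 cluster, and its lowest, 66.8 and 83.8 CPM, was in the Barx1/Ifitm1/Tmem158 cluster. H19 had its highest level, 1138 and 779 CPM, and its lowest, 232 and 159 CPM, in the same populations as Igf2. For Cdkn1c endothelium-like cells stood apart at 2335 and 2125 CPM, above the 1449 and 1380 CPM of the Colec10/Barx1/Dsg2 cluster and the 1335 and 1365 CPM of CM-like cells. The lowest Cdkn1c level was 119 and 148 CPM, in the Gal/Amica1/Gm14226 cluster. Phlda2 was scarce. It reached 91.0 and 62.3 CPM in the Colec10/Barx1/Dsg2 cluster and 50.8 and 40.1 CPM in the Postn/Alcam/Sfrp5 cluster, and at most 27.2 CPM elsewhere.

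Peg3 was the least uneven of the paternally expressed genes. Its levels ran from 682 CPM in endothelium-like cells to 2707 CPM in the Postn/Alcam/Sfrp5 cluster in the library labelled Ctrl, a 3.97-fold span, and from 434 to 1725 CPM in the library labelled cKO, a 3.98-fold span. Plagl1 spanned 117-fold and 86.0-fold. It stood at 774 and 483 CPM in the Colec10/Barx1/Dsg2 cluster and 693 and 446 CPM in the Postn/Alcam/Sfrp5 cluster, and was lowest in cranial mesenchyme-like cells labelled Ctrl, at 6.64 CPM, and in paraxial mesoderm-like cells labelled cKO, at 5.62 CPM. Thus Plagl1 and Phlda2 had the same pair of populations at the top in both libraries. Mest ranged from 313 CPM in pSHF-like cells to 1751 CPM in endothelium-like cells labelled Ctrl, and from 361 CPM in pSHF-like cells to 1671 CPM in the Cbr3/Lum/Tagln cluster labelled cKO. Grb10 varied least, 1.84-fold over the populations labelled Ctrl and 1.75-fold over those labelled cKO.

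**Figure D1:**
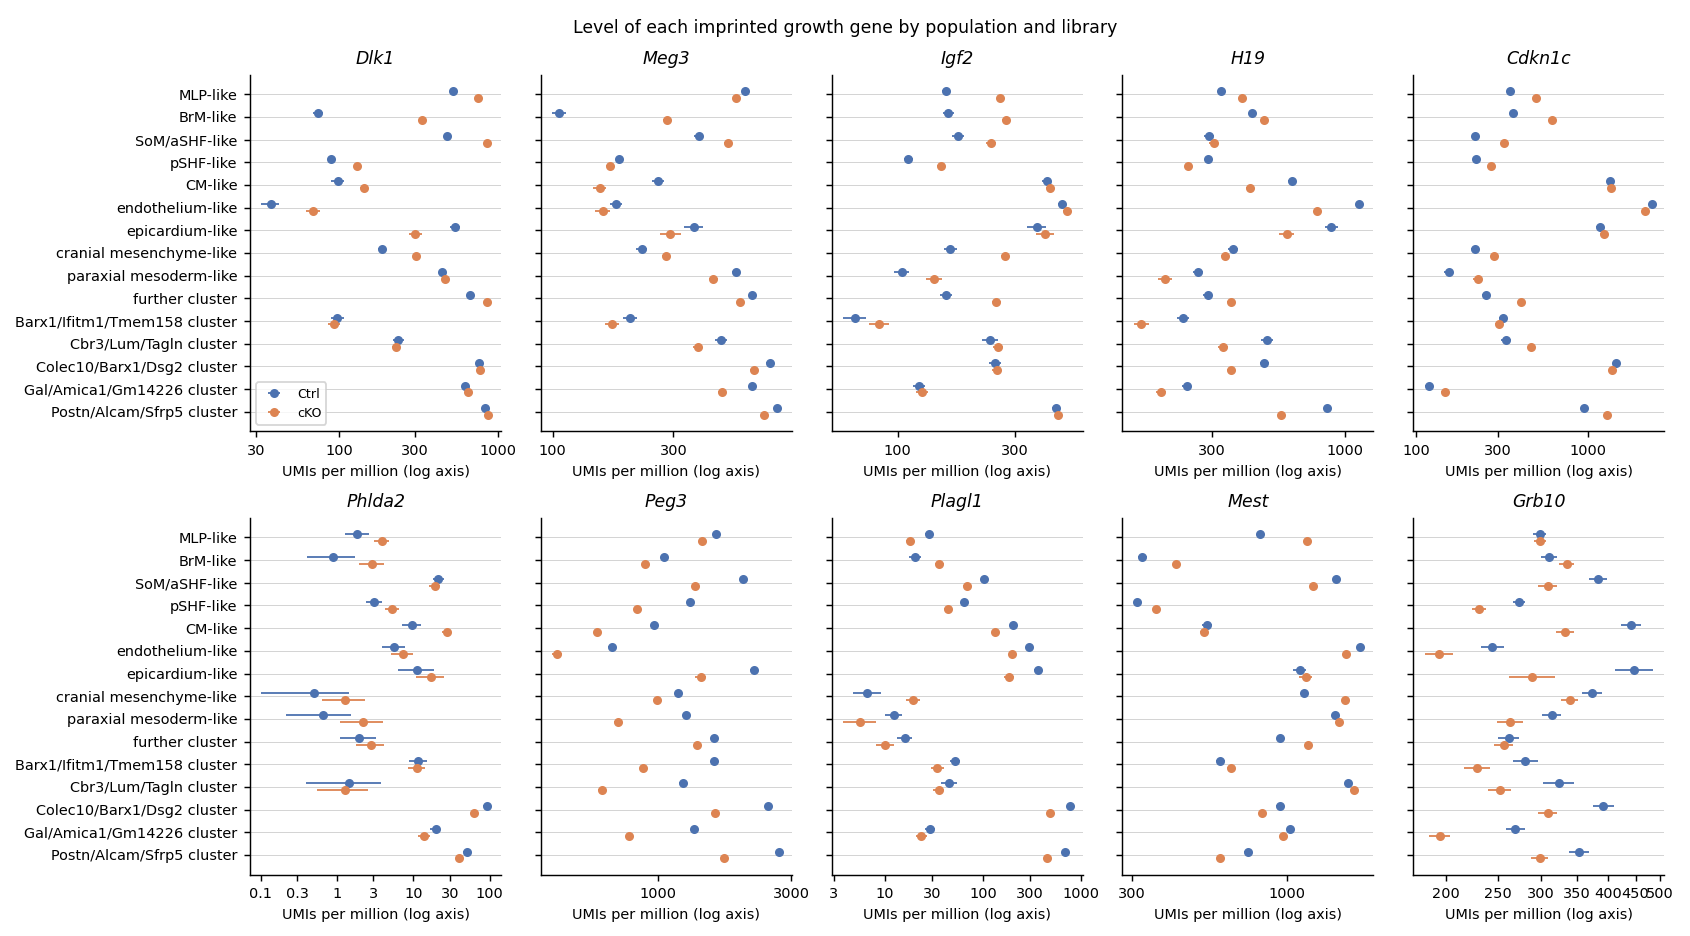
Level of each gene in CPM (x axis, log scale, different for each gene) in 15 populations (y axis), with points for the libraries labelled Ctrl (blue) and cKO (orange) and exact Poisson 95% intervals that cover counting error only. BrM-like Dlk1 stands at 73.5 and 331 CPM, and Plagl1 at 774 and 483 CPM in the Colec10/Barx1/Dsg2 cluster.

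The neighbours Dlk1 and Meg3, and likewise Igf2 and H19, had like patterns. Over the 15 populations, the log2 levels of Dlk1 and Meg3 correlated with Pearson's r = 0.91 in the library labelled Ctrl and 0.95 in the library labelled cKO, and those of Igf2 and H19 with r = 0.94 and 0.95. Cdkn1c followed H19 with r = 0.88 and 0.85. Phlda2, its neighbour, correlated with Cdkn1c at r = 0.44 and 0.49, and with the unlinked Plagl1 at r = 0.81 and 0.80. These populations share libraries, and the points are not independent. From cell to cell within a class the correlations were lower. After each cell was thinned to 5000 UMIs, Spearman's rho of Dlk1 with Meg3 was 0.55 and 0.35 over MLP-like cells and 0.13 and 0.13 over BrM-like cells. For Igf2 with H19 it was 0.57 and 0.58 over endothelium-like cells and 0.15 and 0.22 over MLP-like cells.

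Among 6839 genes with at least 30 CPM in a cluster, the genes most like each member were named by Pearson's r over 45 profiles of clusters in a library. For Dlk1 they were Ptn (r = 0.90), Meg3 (0.88) and Gas1 (0.79), and for Meg3 they were Dlk1, Mirg (0.86), a further noncoding RNA of the same domain, and Pvrl3 (0.78). The gene most like Peg3 was Usp29 (0.94), its neighbour in an imprinted domain, followed by Trim44 (0.89) and Arid4b (0.89). Igf2 was followed by Dad1 (0.88), Saraf (0.87) and Snx4 (0.87), and H19 by Rps6ka2 (0.82), Yipf4 (0.82) and Lamp2 (0.79). A neighbour in the genome was thus among the 3 genes named for Dlk1, Meg3 and Peg3, and not among those for Igf2 or H19. The 45 profiles mix both libraries, however. Within the libraries Igf2 and H19 correlated over the populations with r = 0.94 and 0.95, beside 0.91 and 0.95 for Dlk1 and Meg3. The genes most like Cdkn1c were Tmem176b (0.87), Rab4a (0.84) and Tmem176a (0.84). Phlda2 was most like Hand1 (0.84), Prnp (0.80) and Defb42 (0.80), and Plagl1 was most like Pmp22 (0.88), Tmem88 (0.87) and Prnp (0.87). For Mest the genes were Klhdc10 (0.78), Eif1a (0.76) and Gap43 (0.75), and for Grb10 Brwd3 (0.86), Tspyl1 (0.83) and 9530068E07Rik (0.83).

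The first comparison took the sorted lineage as a whole, and over all kept cells no member differed 1.5-fold between the libraries. A gene counts as called where it differs at least 1.5-fold with at least 10 CPM in a library and 30 UMIs in all. Of 7836 expressed genes, 1.65% were at least 1.5-fold higher and 10.1% at least 1.5-fold lower in the library labelled cKO, so the whole profile leaned to lower values, with a median log2 ratio of −0.11. Normalization by the trimmed mean of M values (TMM) raised all log2 ratios by 0.15 over all kept cells and by 0.08 to 0.14 in the 6 classes below, and values are to be read against that shift. The highest log2 ratios were those of Dlk1, 0.41 (0.39 to 0.43; 354 and 470 CPM), and Igf2, 0.39 (0.36 to 0.41; 190 and 249 CPM). Cdkn1c stood at 0.27 (510.1 and 615 CPM). Peg3 had the lowest, −0.49 (−0.50 to −0.48; 1472 and 1045 CPM), followed by Plagl1 at −0.38 (129 and 98.4 CPM). For Meg3 (−0.07), H19 (−0.19), Grb10 (−0.20), Mest (0.09) and Phlda2 (0.12) the values lay nearer to 0, and under TMM Meg3 changed sign, to 0.07.

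Over the 4 embryos, Dlk1 stood at 358 and 340 CPM in those labelled Ctrl and at 481 and 440.0 CPM in those labelled cKO, with no overlap. Igf2 stood at 177 and 205 against 257 and 238 CPM, and Peg3 at 1443 and 1505 against 1087 and 986 CPM, neither with overlap. Among the 10 members, 3 had both embryos labelled cKO above both labelled Ctrl, against 27.4% of all genes tested, and 4 had both below, against 54.9%. Cdkn1c, Phlda2 and Plagl1 overlapped. Plagl1 moved in opposite directions in the sexes, from 105 to 117 CPM in Xist cells and from 154 to 71.2 CPM in Y-linked cells. The embryos also differed in make-up. The Postn/Alcam/Sfrp5 cluster, 1 of the populations highest in Plagl1, held 3.29% and 11.0% of Xist cells and 8.16% and 3.89% of Y-linked cells, labelled Ctrl and cKO. With all 15 populations weighted equally, Plagl1 was lower in both sexes, with log2 ratios of −0.50 and −0.75. Under the same weighting Cdkn1c stayed split, at 0.37 in Xist and −0.02 in Y-linked cells, and Phlda2 went from 0.12 to −0.09 in all, with −0.32 in Xist cells.

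In MLP-like cells (1048 labelled Ctrl, 1292 labelled cKO), a progenitor class with Tbx1 transcripts in both libraries, 6 members had higher levels in the library labelled cKO with intervals above 0. Of these only Igf2 was called. It stood at 158 and 153 CPM in the embryos labelled Ctrl and 279 and 242 CPM in those labelled cKO, a 1.66-fold difference (1.58 to 1.74; 158 and 261 CPM). Mest, Dlk1 and Cdkn1c stayed just inside the threshold, at 1.44-fold (1.41 to 1.47; 808 and 1166 CPM), 1.43-fold (1.39 to 1.47; 519 and 742 CPM) and 1.40-fold (1.36 to 1.45; 353 and 495 CPM). Under TMM all 3 passed it, with log2 ratios of 0.67, 0.66 and 0.63, so that 4 members were called higher and 0 lower. TMM adds 0.14 to every gene in this class, and the share of all genes called under it is not given here. H19 had a log2 ratio of 0.28 (0.23 to 0.33; 326 and 395 CPM), and Phlda2 had 32 and 78 UMIs, below 10 CPM. Embryos did not overlap between labels for Igf2, Mest, Dlk1, Cdkn1c or H19. Plagl1 was 1.55-fold lower (1.35 to 1.78), at 27.9 and 18.1 CPM. That call was lost in Xist cells, at −0.27 (−0.56 to 0.02) on the log2 scale against −1.05 in Y-linked cells, and at −0.49 under TMM, −0.45 as a mean over cells, −0.36 with doublets kept and −0.31 at resolution 0.6. The background here was 2.05% of 7744 genes higher and 12.4% lower, and 1 of the 9 members measured was called higher and 1 lower, a share that for the lower call is near the background. Both embryos labelled cKO were above both labelled Ctrl for 5 of 9 members and below for 3 of 9, where 26.9% and 48% of all genes were.

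Igf2 was higher in both clusters that make up the class. The cluster led by Irx1 gave a log2 ratio of 0.75 (0.66 to 0.84) and that led by Grem1 one of 0.73 (0.62 to 0.83). For Cdkn1c the same clusters gave 0.75 (0.69 to 0.81) and 0.19 (0.12 to 0.26), and for Plagl1 −0.79 (−1.02 to −0.57) and −0.18 (−0.64 to 0.28). After thinning, 50.9% (47.8 to 54.0) of the MLP-like class carried an Igf2 UMI under the label Ctrl and 69.8% (67.2 to 72.3) under the label cKO. For Dlk1 the shares were 67.2% (64.2 to 70.05) and 88.9% (87.0 to 90.5). Without thinning they were 84.1% and 93.7% for Igf2 and 78.0% and 97.3% for Dlk1. Meg3 did not follow Dlk1 in these cells, with a log2 ratio of −0.13 (−0.17 to −0.09; 580 and 530.1 CPM). That sign was not kept under 4 alternatives: Meg3 gave 0.01 under TMM, 0.14 at resolution 0.6, 0.26 without integration and 0.39 in the first clustering pass, where Dlk1 gave 1.39.

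In BrM-like cells (531 and 713), the precursors of the head muscles, more members were called higher than in the other 5 classes compared. Of the 9 measured, 5 were called higher and 0 lower, where 3.94% of 7641 genes were higher and 14.1% lower. Dlk1 led. It stood at 75.4 and 67.7 CPM in the embryos labelled Ctrl and at 323 and 341 CPM in those labelled cKO, a 4.51-fold difference (4.17 to 4.89). Meg3 stood at 113 and 96.4 CPM against 275 and 299 CPM, which is 2.68-fold (2.50 to 2.87). Both neighbours on chromosome 12 were higher in each embryo labelled cKO, with no overlap.

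Igf2 stood at 173 and 149.7 CPM in the embryos labelled Ctrl and 274 and 292 CPM in those labelled cKO, a 1.72-fold difference (1.62 to 1.83). For Cdkn1c the values were 381 and 356 CPM against 613 and 665 CPM, or 1.70-fold (1.63 to 1.77). Plagl1 was 1.77-fold higher (1.49 to 2.11) at a low level, 17.9 and 23.4 CPM against 38.5 and 28.8 CPM. These 3 genes did not overlap between labels either. Plagl1 had a log2 ratio of 0.30 in Y-linked cells and 1.11 in Xist cells. Mest (326 and 424 CPM), H19 (434 and 482 CPM) and Grb10 (310.5 and 335 CPM) were nearer to equal, and Peg3 was 1.17-fold lower (1052 and 898 CPM). Phlda2 had 9 and 31 UMIs and was not measured. Both embryos labelled cKO lay above both labelled Ctrl for 7 of the 9 members and below for 1, where 24.9% and 46.7% of all genes were.

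More of the BrM-like cells held a UMI of Dlk1, Meg3 or Igf2 in the library labelled cKO, each gene taken alone. After thinning to 5000 UMIs, 23.4% of them held a Dlk1 UMI under the label Ctrl (19.8 to 27.2) and 68.0% under the label cKO (64.5 to 71.4). For Meg3 the shares were 33.1% (29.1 to 37.3) and 67.6% (64.0 to 71.0), and for Igf2 they were 45.6% (41.3 to 49.99) and 71.7% (68.2 to 75.0). Without thinning, 52.5% and 87.7% of BrM-like cells held a Dlk1 UMI. In endothelium-like cells, where Dlk1 was lowest, the thinned share was 12.7% (9.48 to 16.6) labelled Ctrl and 17.2% (13.5 to 21.5) labelled cKO, below both shares in BrM-like cells. For Meg3 and Igf2 no such share is given, and the part of stray transcripts in these shares was not tested. Before thinning the median depth was 18404 and 14235 UMIs in BrM-like cells and 16457 and 13688.5 UMIs in endothelium-like cells. Of the thinned BrM-like cells, 1 of 526 labelled Ctrl and 32 of 710 labelled cKO held 6 or more Dlk1 UMIs. The Dlk1 difference in BrM-like cells lay between 1.91 and 2.33 on the log2 scale under 10 alternatives, and that of Meg3 between 1.19 and 1.63.

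**Figure D2:**
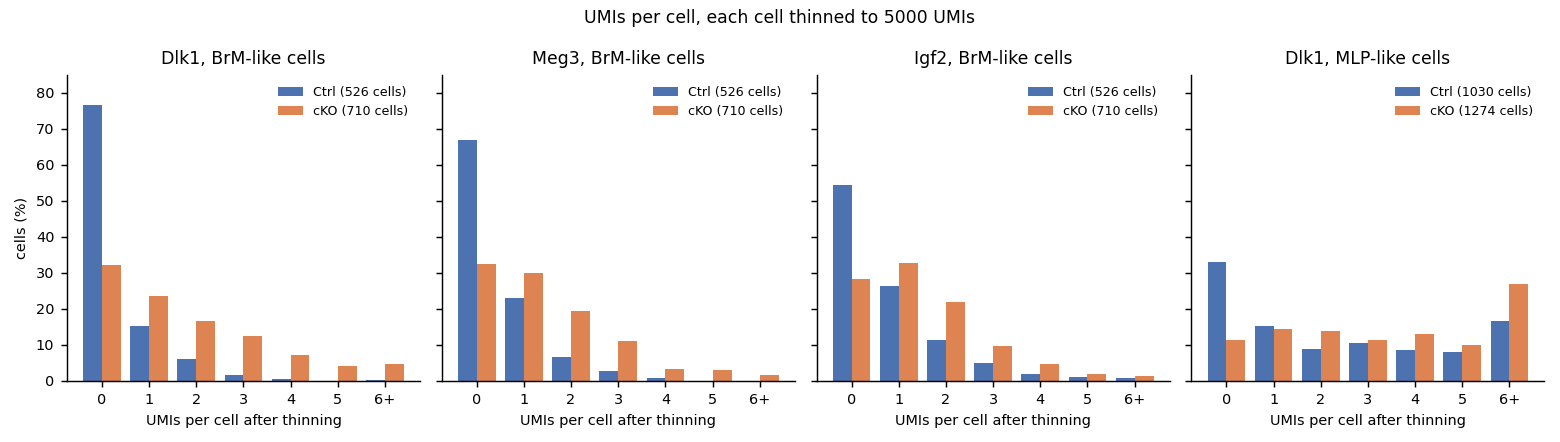
Share of cells (y axis, %) with a given number of UMIs per cell after thinning each cell to 5000 UMIs (x axis, 6 or more pooled) in the libraries labelled Ctrl (blue) and cKO (orange). In BrM-like cells 76.6% labelled Ctrl and 32.0% labelled cKO had no Dlk1 UMI.

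Dlk1 was also higher in the second heart field classes. In SoM/aSHF-like cells (448 and 497) Dlk1 was 1.78-fold higher (1.71 to 1.85), at 478 and 849 CPM, the 1 member of 10 called higher, where 2.47% of 7775 genes were. Meg3 (378 and 494 CPM, 1.31-fold), Igf2 (175 and 241 CPM, 1.37-fold) and Cdkn1c (222 and 327 CPM, 1.47-fold) were higher by less. Cdkn1c was called higher as well under TMM, at a log2 ratio of 0.68, at resolution 0.6 (0.61) and without integration (0.76). Plagl1 was called 1.52-fold lower (104 and 68.4 CPM), where 11.9% of genes were, and lost the call in 5 alternatives, with a log2 ratio of −0.54 in Xist cells, −0.48 under TMM and −0.32 in the first clustering pass. Peg3 lay just inside the threshold at 1.496-fold lower (2020 and 1350.3 CPM). In pSHF-like cells (1142 and 1185) Peg3 was the 1 member called, 1.55-fold lower (1302 and 838 CPM), and 10% of 7607 genes were lower and 1.74% higher there. Under TMM Peg3 lost the call, at a log2 ratio of −0.52, and Dlk1 gained one, at 0.66, and with doublets kept Peg3 gave −0.56. Dlk1 (88.4 and 129 CPM) and Igf2 (111 and 150 CPM) were 1.45-fold and 1.35-fold higher. Dlk1 in the embryos stood at 111 and 52.5 CPM labelled Ctrl and 137 and 113 CPM labelled cKO, with a narrow gap between labels.

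In the differentiated CM-like and endothelium-like classes the interval of Igf2 held 0, and Peg3 was called lower in both. That interval held 0 in 7 of the 15 populations in all, these 2 among them. In CM-like cells (266 and 468) the log2 ratios were 0.05 (−0.03 to 0.13) for Igf2 and 0.03 (−0.01 to 0.08) for Cdkn1c. Meg3 was 1.70-fold lower (1.57 to 1.84), at 247 and 245 CPM in embryos labelled Ctrl and 150.4 and 145 CPM in those labelled cKO. Peg3 was 1.61-fold lower (969 and 603 CPM) and Plagl1 1.502-fold lower (201 and 134 CPM). H19 was 1.47-fold lower, inside the threshold. In Xist cells Peg3 and Plagl1 fell short of the threshold, with log2 ratios of −0.50 and −0.49, and Plagl1 also did under TMM (−0.51) and as a mean over cells (−0.57). With doublets kept Meg3 did too, at −0.50. Phlda2 was 2.85-fold higher (2.06 to 4.01), from 46 UMIs and 9.55 CPM to 208 UMIs and 27.2 CPM, and did not overlap between embryos (9.79 and 11.9 against 24.9 and 28.8 CPM). Kept doublets brought the log2 ratio of Phlda2 from 1.51 to 0.74. In all, 3 of 10 members were called lower and 1 higher, where 10.5% and 2.95% of 7787 genes were. Dlk1 in CM-like cells was not of 1 direction, at 73.2 and 153 CPM in Xist cells and 113 and 90.2 CPM in Y-linked cells.

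Endothelium-like cells (366 and 378), which held the highest Cdkn1c, H19 and Igf2, gave log2 ratios of −0.14 (−0.17 to −0.10) for Cdkn1c, 0.07 (−0.01 to 0.14) for Igf2 and −0.55 (−0.60 to −0.49) for H19. H19 stood at 1093 and 1186 CPM in embryos labelled Ctrl and at 852 and 727 CPM in those labelled cKO. H19, at 1.46-fold, and Meg3, at 1.13-fold, were inside the threshold. So was Plagl1, at 1.49-fold lower (298 and 199.8 CPM), with a log2 ratio of −0.11 (−0.27 to 0.04) in Xist cells and −0.94 in Y-linked cells. Dlk1 was 1.86-fold higher (1.57 to 2.20) at a low level, 36.8 and 68.4 CPM, and Peg3 1.57-fold lower (1.496 to 1.65), 682 and 434 CPM. Dlk1 gave a log2 ratio of 0.31 in Xist cells (−0.06 to 0.68; 40.8 and 50.6 CPM), short of the threshold, and 1.31 in Y-linked cells (32.1 and 79.6 CPM). Peg3 fell short under TMM, at −0.54, and with doublets kept, at −0.48. These 2 of 9 members were called in this class, where 1.99% of 7785 genes were higher and 11.9% lower. Cdkn1c overlapped between labels, at 1776 and 2754 CPM labelled Ctrl and 2363 and 1990 CPM labelled cKO. Igf2 overlapped too, with log2 ratios of 0.31 (0.20 to 0.42) in Xist cells and −0.09 (−0.20 to 0.03) in Y-linked cells.

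Across the 15 populations, counted by whether the interval lies above, below or across 0, some members stood 1 way and others split. Ratios nearer to 0 than the TMM shift can change sign with the scaling, and for most of these populations that was not computed. Peg3 was lower in 15 of 15, with log2 ratios from −0.96 in the Cbr3/Lum/Tagln cluster to −0.16 in MLP-like cells, although for MLP-like cells the first clustering pass gave 0.29, resolution 0.6 gave 0.01 and TMM left −0.02. Embryos did not overlap in 14 of the 15, and in cranial mesenchyme-like cells Peg3 was lower in Xist cells (1526 and 893 CPM) and higher in Y-linked cells (982 and 1113 CPM). Plagl1 was lower in 13 and higher in 2, BrM-like and cranial mesenchyme-like cells, in the latter at 6.64 and 19.4 CPM. There the embryo pairs were unequal, at 5.27 and 23.9 CPM in Xist cells and 6.65 and 8.52 CPM in Y-linked cells. The log2 ratio in Y-linked cells was 0.36 (−0.65 to 1.33). Grb10 was lower in 12 and higher in 1, BrM-like cells, where embryos overlapped. Igf2 was higher in 8 and lower in 0, with an interval that held 0 in 7. Among the 8 are MLP-like, BrM-like, SoM/aSHF-like, pSHF-like, cranial mesenchyme-like and paraxial mesoderm-like cells and the Barx1/Ifitm1/Tmem158 cluster. Cdkn1c was higher in 10, and lower in 2, endothelium-like cells and the Colec10/Barx1/Dsg2 cluster, both of which overlapped between embryos.

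Dlk1 was higher in 9 populations, in 3 of which embryos overlapped between labels, and lower in epicardium-like cells, where it stood at 537 and 301 CPM and overlapped between embryos. Meg3 was lower in 12 and higher in 3, which were BrM-like, SoM/aSHF-like and cranial mesenchyme-like cells, and embryos overlapped in 6 of the 12. In the Postn/Alcam/Sfrp5 cluster Dlk1 went opposite ways, from 505 to 963 CPM in Xist cells and from 995 to 473 CPM in Y-linked cells. In cranial mesenchyme-like cells the embryos overlapped for both genes, and Xist cells gave lower Dlk1 labelled cKO (361 and 231 CPM). H19 was lower in 11 and higher in 3, among them MLP-like and BrM-like cells. Mest was higher in 7 and lower in 5, and Phlda2 higher in 5 and lower in 3. Embryos did not overlap in any of the 8 populations with higher Igf2 or of the 12 with lower Grb10, and they did in 2 of the 13 with lower Plagl1, 2 of the 10 with higher Cdkn1c and 1 of the 11 with lower H19. Some gaps were narrow. Igf2 in paraxial mesoderm-like cells stood at 99.4 and 129 CPM labelled Ctrl and 140 and 134 CPM labelled cKO, with 25 Xist cells labelled cKO. Shares of all genes for such counts are given only for MLP-like cells (26.9% above, 48% below) and BrM-like cells (24.9% and 46.7%). In the Postn/Alcam/Sfrp5 cluster H19 had its lowest log2 ratio, −0.59.

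**Figure D3:**
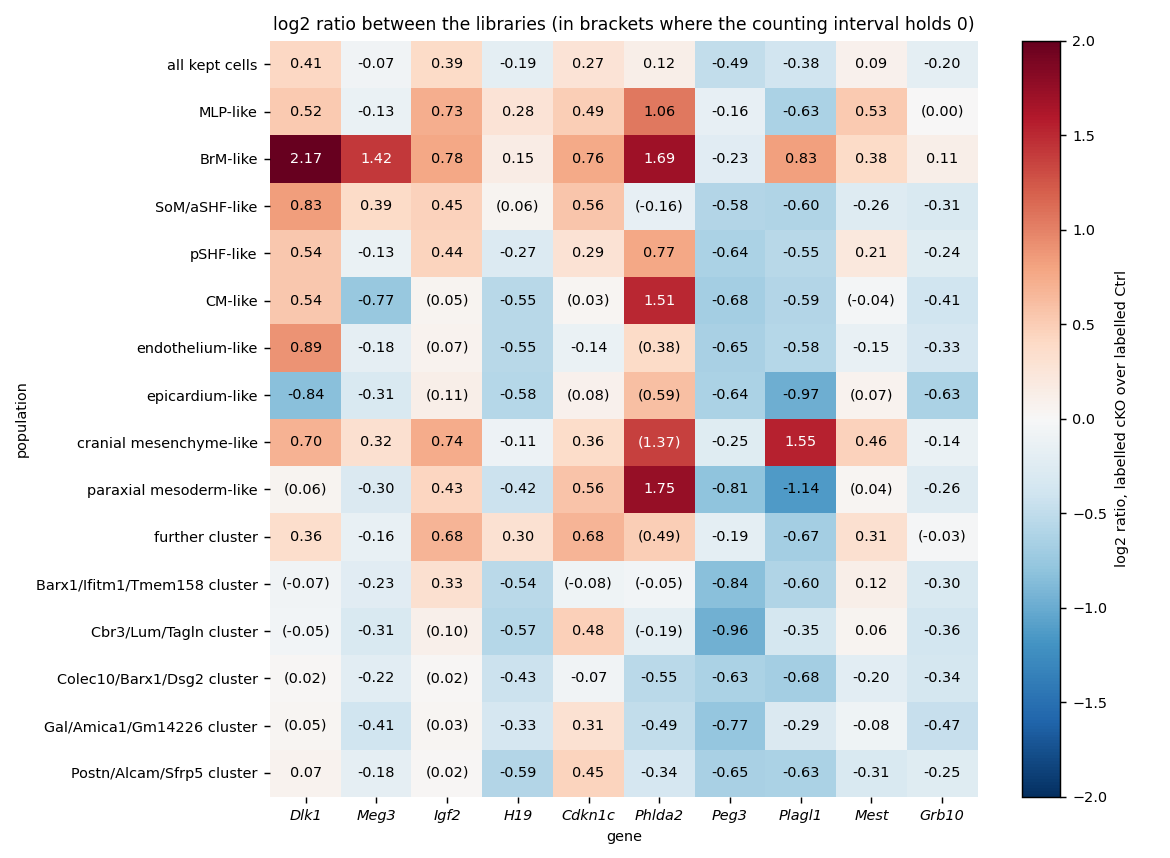
The log2 ratio of the library labelled cKO over the library labelled Ctrl (colour and number) for each gene (x axis) in all kept cells and in 15 populations (y axis), in brackets where the counting interval holds 0. The Peg3 column is negative in every population, and the BrM-like row holds the highest Dlk1 (2.17) and Meg3 (1.42) values.

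Within a domain the neighbours can be set against each other in the same cells, which takes the scaling to a total out of the comparison. Each 3′ UMI counts 1 molecule whatever its length. Over all kept cells there were 1.13 Meg3 UMIs per Dlk1 UMI labelled Ctrl and 0.807 labelled cKO, a log2 difference of −0.48 (−0.51 to −0.46). Per Igf2 UMI there were 2.16 H19 UMIs labelled Ctrl and 1.45 labelled cKO, a log2 difference of −0.58 (−0.61 to −0.55). In both domains the maternally expressed noncoding RNA made up less of the pair in the library labelled cKO. Lower values were not particular to maternally expressed RNAs. The paternally expressed noncoding RNAs Kcnq1ot1 and Airn, singled out after their values were seen, gave log2 ratios of −0.36 and −0.17 over all kept cells. Under TMM these were −0.21 and −0.02.

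The H19 to Igf2 ratio was lower in 15 of 15 populations, with log2 differences from −0.87 to −0.37, and both embryos labelled cKO were below both labelled Ctrl in each of the 15. It stood at 2.19 and 2.15 in the embryos labelled Ctrl and 1.40 and 1.52 in those labelled cKO over all kept cells. In MLP-like cells, where both genes were higher, the ratio went from 2.07 to 1.52, and in endothelium-like cells, where H19 was lower, from 2.44 to 1.59. The Meg3 to Dlk1 ratio was lower in 13 of 15 populations, with an interval that held 0 in the Barx1/Ifitm1/Tmem158 cluster, and higher in epicardium-like cells (0.673 and 0.972), a population of 61 and 88 cells. Embryos did not overlap in 13 of 15. CM-like cells gave −1.31 (−1.50 to −1.12), with unequal embryo pairs. In Xist cells the ratio went from 3.38 to 0.984, while in Y-linked cells it went from 2.16 to 1.60. BrM-like cells, where both genes were higher, gave −0.75 (−0.90 to −0.60). No share over other gene pairs is given beside either count of populations or of embryos in this paragraph. Of single genes over all kept cells, 27.4% had both embryos labelled cKO above both labelled Ctrl and 54.9% had both below.

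Phlda2 and Cdkn1c, the maternally expressed protein genes of the third domain, showed no common shift. Their log2 difference was −0.15 (−0.25 to −0.04) over all kept cells. It was negative in 4 populations, positive in 2 (CM-like, 1.48, and pSHF-like cells, 0.48) and had an interval that held 0 in 9.

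**Figure D4:**
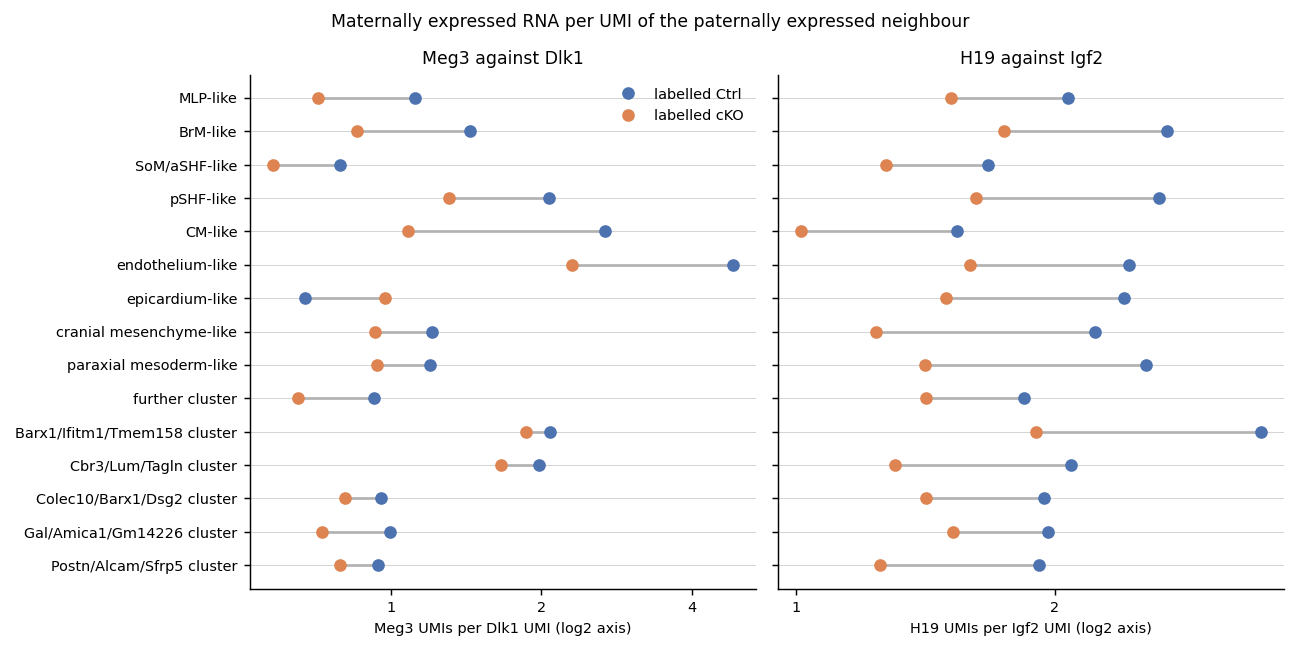
UMIs of the maternally expressed noncoding RNA per UMI of its paternally expressed neighbour (x axes, log2 scale) in 15 populations (y axis), with the libraries labelled Ctrl (blue) and cKO (orange) joined by a line. H19 per Igf2 is lower in the library labelled cKO in all 15 populations, and Meg3 per Dlk1 in all but epicardium-like cells.

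**Figure D5:**
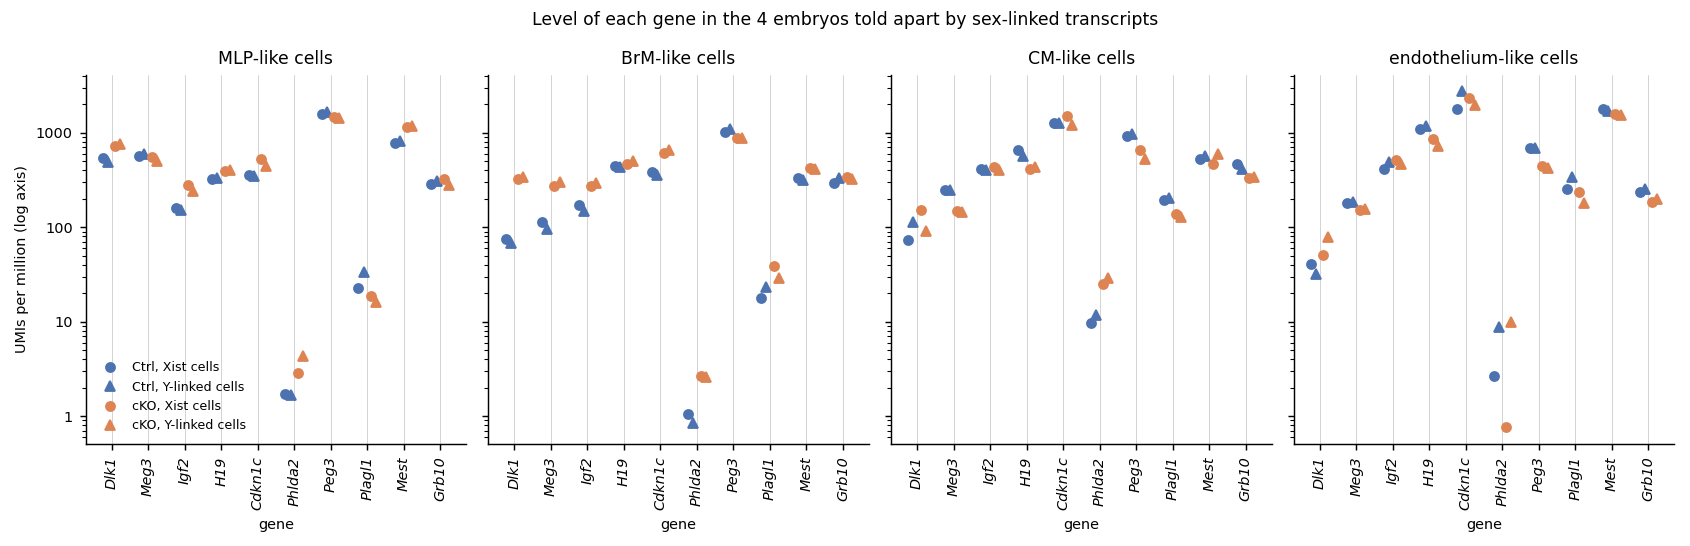
Level of each gene (y axis, CPM, log scale) in the 4 embryos told apart by Xist (circles) and Y-linked transcripts (triangles), labelled Ctrl (blue) and cKO (orange), in 4 classes. BrM-like Dlk1 stands at 75.4 and 67.7 CPM against 323 and 341 CPM, and CM-like Dlk1 overlaps between labels.

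Igf2 acts through receptors and binding proteins, and 15 genes of that axis were read beside it. Over all kept cells 4 of 15 were at least 1.5-fold lower in the library labelled cKO and none higher, where 10.1% of all genes were lower, with a list median of −0.48 beside −0.11 for all genes tested. Igf1r, which encodes the receptor that carries the growth signal of insulin-like growth factors, was the 1 gene at least 2-fold apart over all kept cells with the same direction in both sexes. Its levels were 118 and 58.4 CPM (log2 ratio −1.01, −1.05 to −0.97), with −0.92 in Xist cells and −1.12 in Y-linked cells. The other 3, singled out after their values were seen, were the receptor Insr (15.2 and 9.99 CPM) and the signalling adaptors Irs1 (15.8 and 9.10 CPM) and Irs2 (12.02 and 7.28 CPM). Under TMM 2 of the 4 were left, Igf1r (−0.86) and Irs1 (−0.65), and Igf1r was then short of 2-fold. In BrM-like cells 4 of the 6 lower calls described next were left, and in MLP-like cells 2 of 3.

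In BrM-like cells, where Igf2 was higher, Igf1r stood at 219.99 and 69.1 CPM (log2 ratio −1.67, −1.79 to −1.55). Of 14 axis genes measured there, 6 were lower and 2 higher, where 14.1% and 3.94% of all genes were, the latter being Igfbp2, which encodes a binding protein (88.1 and 175 CPM), and Pappa, a protease that cleaves binding proteins (4.37 and 15.4 CPM). In MLP-like cells 3 of 11 were lower and none higher, where 12.4% and 2.05% of all genes were. Genes named in this paragraph other than Igf1r were singled out after their values were seen. The binding protein gene Igfbp5 stood at 479 and 192 CPM there (log2 ratio −1.32, −1.38 to −1.27). The maternally expressed Igf2r, which is also on the list of maternally expressed genes and whose product clears Igf2 from the cell surface, had a log2 ratio of −0.50 over all kept cells and −0.79 (−0.88 to −0.70) in CM-like cells. In BrM-like cells Igf2r gave 0.11 (−0.07 to 0.28).

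Other imprinted genes were read beside the members. Of 22 further paternally expressed genes found by symbol, 13 could be measured over all kept cells and none passed 1.5-fold, with a median of −0.04. Of 14 further maternally expressed genes 7 could be measured and none passed, with a median of −0.26. In BrM-like cells 1 of 13 and 1 of 6 were called higher, Peg10 (61.4 and 115 CPM) and Asb4 (58.8 and 112 CPM), and Zim1 was called lower (15.8 and 10.4 CPM), where 3.94% of all genes were higher and 14.1% lower. The Zim1 call was lost in each sex taken alone, with log2 ratios of −0.58 in Xist and −0.41 in Y-linked cells. Under TMM, which adds 0.12 to every gene in BrM-like cells, 3 of the 6 maternally expressed genes were called higher and 0 lower. The shares of all genes in this paragraph are from the scaling without TMM, and none is given under it. In each of the other 5 classes 1 maternally expressed gene was called lower, where 10% to 12.4% of all genes were, and under TMM that call was left in 2 of them. Peg10 and Asb4 are neighbours in an imprinted domain, and all 3 genes were singled out after their values were seen. The median over the 9 members measured in BrM-like cells was 0.76, beside −0.15 for the paternally and 0.30 for the maternally expressed list and −0.12 for all genes tested.

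Cdkn1c was read beside other cyclin-dependent kinase inhibitors and proliferation genes. Of 3 other inhibitors, Cdkn1b alone reached the count filter over all kept cells (22.7 and 22.5 CPM). None of 14 proliferation genes passed 1.5-fold over all kept cells in either direction, with a median of −0.01, nor did any in MLP-like or BrM-like cells, where Cdkn1c was higher. Across the 15 populations the log2 level of Cdkn1c and that of the summed proliferation genes correlated with r = −0.58 in the library labelled Ctrl and −0.66 in the library labelled cKO, as a description of points that share libraries. Spearman's rho was −0.62 and −0.49.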

How the data were processed

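The authors aligned the reads and counted UMIs per gene and barcode with Cell Ranger 3.1.0 on mm10, per the submitters' processing notes, and deposited 1 matrix of raw counts for each of 2 libraries. From these counts, cells with at least 1000 genes and at most 10% mitochondrial UMIs were kept, and the highest doublet scores (Scrublet in scanpy 1.11.5) were removed at 0.8% per 1000 barcodes. Cells were integrated and clustered in Seurat 5.3.0 (R 4.3.3; 2000 variable genes, 30 dimensions, resolution 1) without 208 names that include the members, other listed imprinted genes, Tbx1 and sex-linked genes, and, in a second pass, without a further 1191 genes that differed 2-fold between the libraries. Clusters were named "-like" from marker lists.

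Counts were summed per library and population and scaled to CPM by the summed UMIs of that population in that library, with exact Poisson intervals (scipy 1.17.1). Ratios between libraries have exact conditional intervals and differences of log2 ratios approximate ones, and shares of cells after thinning to 5000 UMIs have Clopper-Pearson intervals. All are at 95%. A count of 3 is the floor, 0.149 to 0.174 CPM in MLP-like cells. TMM factors came from edgeR 4.0.16. With 1 library per group no test was run. The scripts were tested on simulated data. Named genes are the 10 members, genes of other lists at least 2-fold apart over all kept cells in the same direction in both sexes, and the 3 genes most like each member, on log2(CPM + 10). The members and lists were chosen with earlier results of these data known. Alternatives covered filters, doublets, sexes, averaging, clustering, scaling, threshold and thinning. Some items are not reported here.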

Additional observations from a re-analysis of the deposited data

Results flagged for a closer look

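Several members stood in opposite directions in different classes, and none of these differences was tested, since each class has 1 library per label. The log2 ratio of Meg3 was 1.42 in BrM-like and −0.77 in CM-like cells, a difference of 2.19. Plagl1 gave 0.83 in BrM-like and −0.63 in MLP-like cells, 1.45 apart. Cdkn1c gave 0.76 in BrM-like and −0.14 in endothelium-like cells, 0.90 apart. H19 gave 0.28 in MLP-like and −0.55 in CM-like cells, 0.83 apart. Mest gave 0.53 in MLP-like and −0.26 in SoM/aSHF-like cells, 0.79 apart. Grb10 gave 0.11 in BrM-like and −0.41 in CM-like cells, 0.52 apart, although in BrM-like cells Grb10 overlapped between embryos, with 0.19 in Xist and −0.05 in Y-linked cells.

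Others stood in opposite directions in the Xist and Y-linked cells, 1 embryo of each sex per label, and these differences were not tested either. Over all kept cells Plagl1 gave 0.16 and −1.11, 1.27 apart, Cdkn1c 0.58 and −0.08, 0.66 apart, and Phlda2 0.23 and −0.24, 0.47 apart. Dlk1 in CM-like cells gave 1.06 and −0.33, 1.39 apart. Cdkn1c in endothelium-like cells gave 0.41 and −0.47, 0.88 apart, and Grb10 in MLP-like cells 0.15 and −0.15, 0.29 apart.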

How the results depend on the processing

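No paired analysis was possible because each label has 1 library and no replicate numbers, so that ratios within each sex are given as values with no test. No called value changed sign. Counts of members at least 1.5-fold apart moved by more than 1.5 times as follows. Except with no filter on low counts, the share of all genes called under the same alternative is not given. Over all kept cells (0 members) the count was 2 in Y-linked cells and, in an alternative chosen after seeing the data, 1 with populations weighted equally. In MLP-like cells (2) it was 1 with doublets kept, in Xist cells and as a mean over cells, 4 in the first clustering pass and without integration (3 higher, 1 lower) and under TMM (4 higher), and 0 at a 2-fold threshold. In BrM-like cells (5) it was 2 at 2-fold. In SoM/aSHF-like cells (2) it was 1 in Xist cells, as a mean over cells and in the first pass, 4 without integration and 0 at 2-fold. In pSHF-like cells (1) it was 2 in either sex, as a mean over cells, at resolution 0.6, without integration and with no filter on low counts (where 25.3% of all genes were called), 3 in the first pass and 0 at 2-fold. In CM-like cells (4) it was 1 at 2-fold. In endothelium-like cells (2) it was 1 in Xist cells and under TMM, 4 in Y-linked cells and 0 at 2-fold. The Meg3 minus Dlk1 difference (−0.48) was −0.45 as a mean over cells and −0.39 with equal weights. H19 minus Igf2 (−0.58) was −0.64 with stricter cell filters, −0.65 in Xist cells, −0.51 in Y-linked cells and −0.54 over all cells of the matrices. Phlda2 minus Cdkn1c (−0.15) was −0.36 in Xist cells. The cause of these moves was not tested. Taking each MLP-like cluster alone and reading the other gene lists under TMM were also chosen after seeing the data. A count that did not move can hide a swap of members: in pSHF-like cells under TMM Dlk1 (0.66) was called in place of Peg3 (−0.52). Phlda2 lay below 10 CPM in MLP-like and BrM-like cells and was not measured there.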
